A study of Arabidopsis thaliana with 8 samples.

Results

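Whole Arabidopsis thaliana plants kept for 24 h at 4 °C were compared with plants kept for 1 h at 4 °C. The samples were chosen by their labelled time in the cold: 4 of the 8 arrays of the series belong to this comparison, 2 at 24 h and 2 at 1 h. All plants were wild type of the Col-0 accession, were grown on agar plates with Gamborg's B5 salts at 24 °C in constant fluorescent light of 100 µmol per square metre per second after 4 days of cold stratification, and were 10 days old at the start. Both cold groups were moved on their plates to 4 °C and to dimmer light, kept on throughout at about 25 µmol per square metre per second. Temperature, dim light and the move itself were common to them. Time in the cold, time in dim light and plant age differed together, so that these cannot be told apart. The other 4 arrays, 2 from plants harvested at 0 h under the growth conditions and 2 from plants kept at 4 °C for 7 days, are given as levels beside the comparison. No plants kept warm for 24 h were analysed here, and the labels give no clock time of harvest.

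Cold acclimation is the gain of freezing tolerance that a plant such as Arabidopsis makes during days at a low, non-freezing temperature. Within the first hours, calcium signals and rapidly induced transcription factors act, among them the CBF factors and the zinc-finger factor STZ, and the CBF factors then switch on the cold-regulated (COR) genes, whose hydrophilic products protect membranes and proteins. Over the following day, RNA processing, protein synthesis, sugar handling, cell walls and growth are also known to be adjusted in the cold.

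Total RNA was hybridised to one-colour Affymetrix ATH1 arrays, and each value is the MAS5 signal of a probe set on a linear scale. The trimmed mean was 100.01 on each array. The arrays of a group correlated at r = 0.956 at 24 h and 0.972 at 1 h across the tested probe sets, and 3.55% at 24 h and 1.39% at 1 h differed by over 2-fold between them. The older actin controls gave ratios of 3′ to 5′ signal, which reflect RNA integrity, of 6.53 and 3.44 at 24 h. At 1 h they gave 5.32 and 3.95. On the same 4 arrays the other controls gave 1.2 to 1.25 for actin, 0.711 to 0.854 for GAPDH and 1.37 to 1.75 for ubiquitin. The part of RNA integrity in the results was not tested. Differences are 24 h minus 1 h in group means of log2(signal + 8), each with its standard error (SE) and n = 2 arrays per group. A probe set was called when its limma p, adjusted by Benjamini-Hochberg over all 15017 probe sets tested, was under 0.05. Whether arrays of one group hold RNA of separate cultures is not stated in the labels, so each p-value reflects no more than the spread among these arrays, possibly a technical one. The small number of arrays limits the precision. The gene lists below were chosen with earlier results of these data known. Their counts are a description beside the shares over all tested probe sets, and no list was tested as a set.

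Of the 15017 probe sets tested, 3906 (26.0%) were called. At 24 h, 1701 (11.3%) were higher and 2205 (14.7%) were lower than at 1 h. With a difference of at least 2-fold as a second condition, 905 (6.03%) were higher and 1164 (7.75%) were lower, and at least 8-fold differences were found for 32 higher and 31 lower probe sets. The 24 h arrays and the 1 h arrays did not overlap for 63.7% of the tested probe sets, so that separation of the arrays is by itself no mark of a call. The balance of directions depended on the scaling: with the arrays scaled to equal medians, 2121 probe sets were higher and 1593 lower, and the median difference over the tested probe sets was 0.04 in place of -0.08. Leaving out 1 h replicate 1 left 2042 calls and leaving out 1 h replicate 2 left 2396. The plot of the difference against the mean signal shows the calls of both signs and the few genes that stand farthest from 0.

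**Figure D1:**
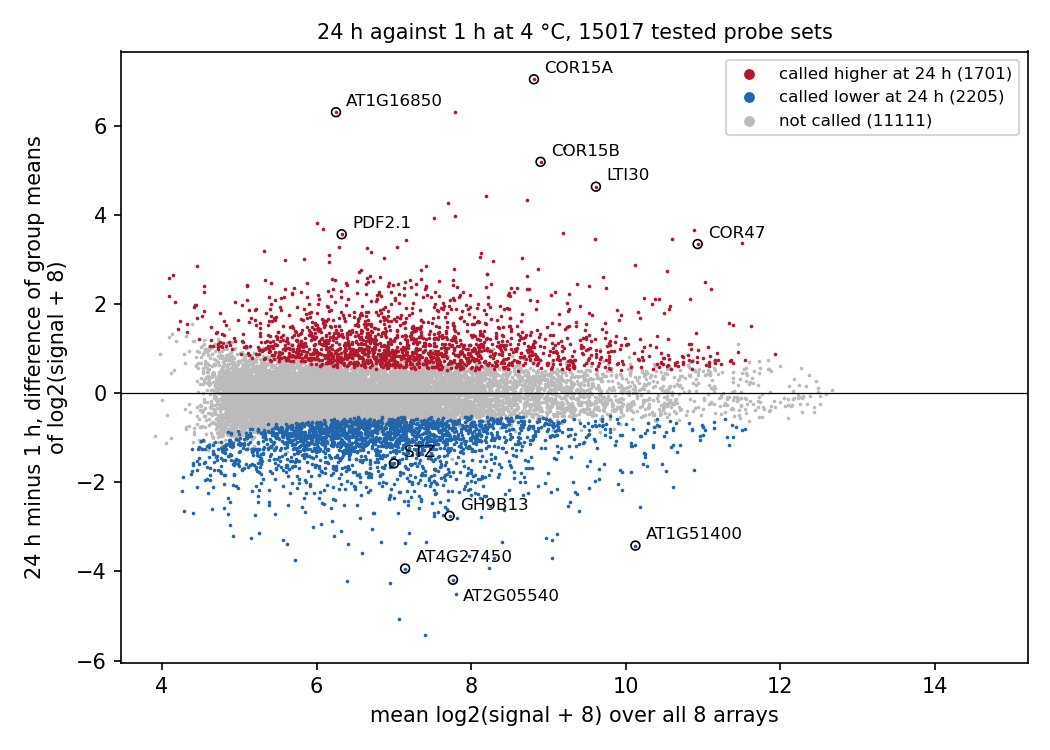
Each point is 1 of 15017 tested probe sets, with its mean log2(signal + 8) over all 8 arrays on the horizontal axis and the difference of group means, 24 h minus 1 h, on the vertical axis. Red points were called higher at 24 h (1701), blue points were called lower (2205), and circled genes, from COR15A at 7.04 to AT2G05540 at -4.19, are named in the text.

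The COR genes gave the largest rises with a known name. All 7 tested members of the COR list were higher at 24 h, with a median difference of 3.34, against -0.08 over all tested probe sets. With no filter on dim probe sets, 6 of the 7 were called higher. LEA4-5, among the 7, was at most 8.46 outside its 24 h arrays. It passed that filter through the 24 h arrays, so its direction is no separate support. COR15A (AT2G42540), which encodes a chloroplast protein that protects membranes during freezing, had signals of 4523 and 7758 at 24 h, against 10.1 and 104 at 1 h. Its close relative COR15B (AT2G42530) had signals of 2931 and 4178 at 24 h, against 48.0 and 157 at 1 h. The groups lay far apart for both genes, and the spread at 1 h was wide. COR15A was higher by 7.04 ± 0.60 (SE, n = 2 per group) and COR15B by 5.19 ± 0.41, with limma adjusted p of 1.78e-05 and 1.18e-05. The size for COR15A rests on the 1 h arrays: leaving out 1 h replicate 1 gave 5.73, and leaving out 1 h replicate 2 gave 8.35. For COR15B the same fits gave 4.41 and 5.97. The 2 genes neighbour each other on the RefSeq annotation and are alike in sequence, so that cross-hybridisation between their probe sets was not tested.

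The dehydrins, hydrophilic proteins that accumulate when cells lose water, were also represented. LTI30 (AT3G50970) had signals of 5421 and 5115 at 24 h, against 186 and 225 at 1 h, a difference of 4.63 ± 0.29 with a limma adjusted p of 2.42e-06. COR47 (AT1G20440) had signals of 5963 and 9336 at 24 h, against 590 and 897 at 1 h, a difference of 3.34 ± 0.28. At 0 h LTI30 stood at 192 and 85.9 and COR47 at 752 and 962, so that for both genes the 1 h levels lay near the 0 h levels. TIL, a temperature-induced lipocalin, was 3.97-fold higher, with signals of 2907 and 3140 at 24 h, against 742 and 768 at 1 h. LEA4-5, a late embryogenesis abundant protein, was dim at every time, with 48.6 and 35.2 at 24 h, against 3.58 and 2.18 at 1 h, and its difference of 2.19 ± 0.44 ran between 1.08 and 3.47 with an added constant of 32 or 1 in place of 8. COR27, a cold-induced regulator tied to the circadian clock, had 468 and 596 at 24 h, against 50.5 and 266 at 1 h. Its difference of 2.08 ± 0.57 had a limma adjusted p of 0.0199, and it was not called when 24 h replicate 1, 24 h replicate 2 or 1 h replicate 1 was left out, with adjusted p of 0.0511, 0.102 and 0.166. CBF1, CBF2, CBF3 and RD29A were not analysed here by name.

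**Figure D2:**
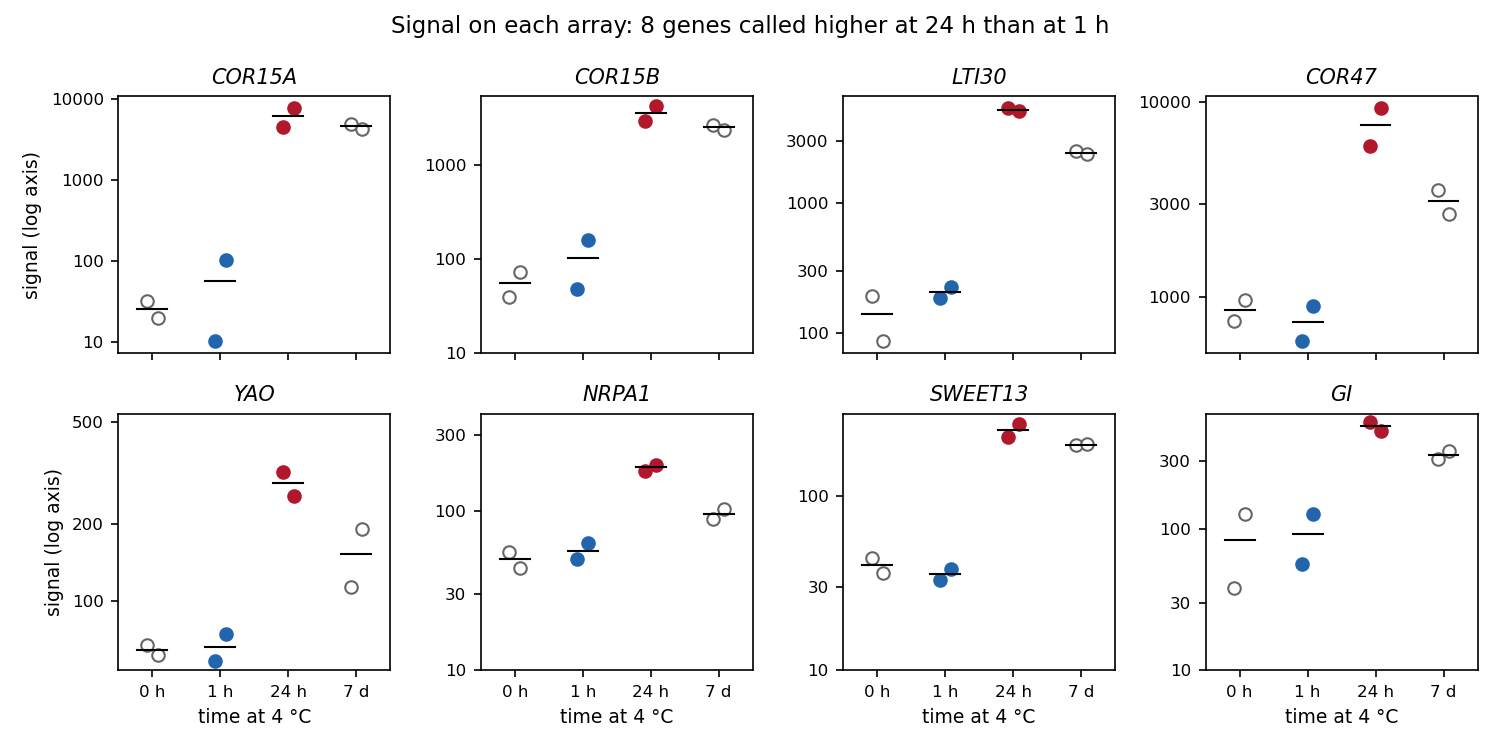
Signal on a log axis against time at 4 °C for 8 genes called higher at 24 h (red) than at 1 h (blue), with 1 point per array and a bar at the mean of 2 arrays; open points are the 0 h and 7-day arrays. In COR15A the 24 h arrays stand at 4523 and 7758 and the 1 h arrays at 10.1 and 104, and in all 8 panels both 24 h arrays lie above both 1 h arrays.

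Outside the COR list, several of the 15 largest rises belonged to genes known here only by a locus code, to which no function is given. AT1G16850 had signals of 914 and 1063 at 24 h, against 2.596 and 6.931 at 1 h. Its difference of 6.30 ± 0.22 had the smallest adjusted p of the named genes, 6.52e-08 by limma, and ran between 4.79 and 7.53 with an added constant of 32 or 1, its 1 h signals being near the floor of the array. AT1G80130 had 1343 and 1490 at 24 h, against 64.4 and 52.6 at 1 h (difference 4.42 ± 0.21). AT4G30650 had 2703 and 2715 at 24 h, against 144 and 391 at 1 h (3.46 ± 0.35), and its difference became 2.77 when 1 h replicate 1 was left out and 4.16 when 1 h replicate 2 was left out. AT1G51090, AT3G55580, AT1G64890, AT3G55760, AT3G17130 and AT2G22590 were higher by 3.82, 3.69, 3.28, 3.28, 3.26 and 3.18 on the log2 scale. For AT2G22590, the 24 h signals of 296 and 100.5 lay apart, against 10.9 and 13.1 at 1 h. Across the 15 largest rises the differences ran between 3.16 and 7.04, and both 24 h arrays lay above both 1 h arrays by the rule that chose them. Of the probe sets with no gene in the annotation, 264511_at was higher by 6.30 ± 0.30 and 248337_at by 5.50 ± 0.31.

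Ribosomal RNA is made and ribosomes are put together in the nucleolus. Of 17 tested genes of RNA polymerases and the nucleolus, 10 were higher and 0 were lower at 24 h, with a median difference of 1.02; over all tested probe sets 11.3% were higher. RNA polymerase I transcribes the ribosomal RNA genes, and its 2 largest subunits, encoded by NRPA1 and NRPA2, were both higher. NRPA1 had signals of 179 and 195 at 24 h, against 49.9 and 62.4 at 1 h (1.61 ± 0.20, limma adjusted p 0.000198). NRPA2 had 298 and 294 at 24 h, against 123 and 116 at 1 h (1.26 ± 0.20). YAO, a nucleolar WD-repeat protein, had 318 and 257 at 24 h, against 58.5 and 74.3 at 1 h (1.99 ± 0.25). IMP4, a part of the complex that processes the small-subunit ribosomal RNA, had 410 and 399 at 24 h, against 152 and 124 at 1 h (1.5 ± 0.21). For each of these 4 genes the 1 h signals lay near the 0 h signals, which ran between 43.9 and 168. NRPB12 and NRPB7, smaller polymerase subunits, were higher by 1.26 and 1.18. The exosome subunits RRP41 and RRP41L, which trim RNA, were higher by 0.89 and 1.08, and both lost their call without 1 h replicate 1 (adjusted p 0.0658 and 0.0909). NRPC1 and NRPC2 of RNA polymerase III were not called, at 0.17 and 0.50. Leaving out any 1 array left between 8 and 11 higher members and 0 lower ones.

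Other ribosome-assembly genes, chosen after their values were seen, also stood higher. They add no support to the list, which was itself chosen with earlier results of these data known. RBL, a nucleolar protein known as REBELOTE, had signals of 363 and 364 at 24 h, against 59.3 and 69.4 at 1 h. Notchless (AT5G52820), an assembly factor of the large subunit, had 455 and 368 at 24 h, against 91.2 and 117 at 1 h. NOB1 (AT5G41190), the nuclease that makes the last cut of the small-subunit RNA, had 471 and 389 at 24 h, against 131 and 158 at 1 h. Their differences were 2.36, 1.90 and 1.52, and the groups did not overlap. Coilin (AT1G13030), the scaffold of Cajal bodies, was higher by 1.36 ± 0.23.

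RNA helicases, splicing factors and chaperones gave more higher than lower calls, whereas over all tested probe sets 11.3% were higher and 14.7% lower. Of 5 helicases tested, 4 were higher and 0 lower: AT3G09720 by 1.4, EIF4A-2, a translation initiation helicase, by 1.18, RH39, which matures chloroplast ribosomal RNA, by 1.12, and the nucleolar PRH75 by 1.02; RH20, at 0.48, was not called. Of 23 splicing and RNA export genes, 5 were higher and 2 lower, a share near the 26.0% called over all tested probe sets. AtRZ-1c, a glycine-rich RNA-binding protein, had 504 and 478 at 24 h, against 181 and 169 at 1 h (1.45 ± 0.22). The close relatives MAC3A and MAC3B, ubiquitin ligases of a spliceosome-associated complex, lay on opposite sides. MAC3A had 296 and 311 at 24 h, against 170 and 160 at 1 h, while MAC3B had 379 and 365 at 24 h, against 540 and 610 at 1 h. MAC3A was higher by 0.85 ± 0.17 (limma adjusted p 0.00369) and MAC3B was at -0.61 ± 0.19 (0.0301). The call of MAC3B was lost with equal array medians (adjusted p 0.097) and without any 1 of the 4 arrays (0.0769 to 0.177). UBA1A, an RNA-binding protein, fell by 0.94 on the log2 scale. Without 1 h replicate 1, 4 of these 23 genes were called, 3 higher and 1 lower.

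Of 15 chaperone genes, 6 were higher and 0 lower, with a median of 0.57, beside 11.3% higher over all tested probe sets. Hop2 and Hop1, co-chaperones that link the Hsp70 and Hsp90 machines, were higher by 1.70 and 1.00. Hop2 had signals of 376 and 374 at 24 h, against 102 and 117 at 1 h, and the arrays of each group lay close together. Hsp70-2, a cytosolic chaperone, was higher by 1.2, BOB1, a NudC-domain protein needed for development at high temperature, by 1.01, Fes1A, a nucleotide exchange factor, by 1.01 and Cpn60beta3, a chloroplast chaperonin subunit, by 0.89. The calls of Fes1A and Cpn60beta3 held in 1 of the 4 fits that left out an array, and that of Hop1 failed without 1 h replicate 1 (adjusted p 0.0609). Without 1 h replicate 1 only 3 were called higher and 1 was called lower. AT5G48570, of the separate heat-shock list, fell by 1.53 on the log2 scale, with 12 and 0.87 at 24 h, against 32.2 and 28.7 at 1 h, and lost its call when 24 h replicate 2, 1 h replicate 1 or 1 h replicate 2 was left out (adjusted p 0.128, 0.134 and 0.0931). The calreticulin gene CRT1b was higher by 0.74, a call lost without 24 h replicate 2, 1 h replicate 1 or 1 h replicate 2. PGY1, the 1 ribosomal protein gene of its list, was higher by 0.72, with the call lost without the same 3 arrays. RBP45B, of the RNA-binding list, and the proteasome gene RPN12a were not called, at 0.28 and 0.13.

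**Figure D3:**
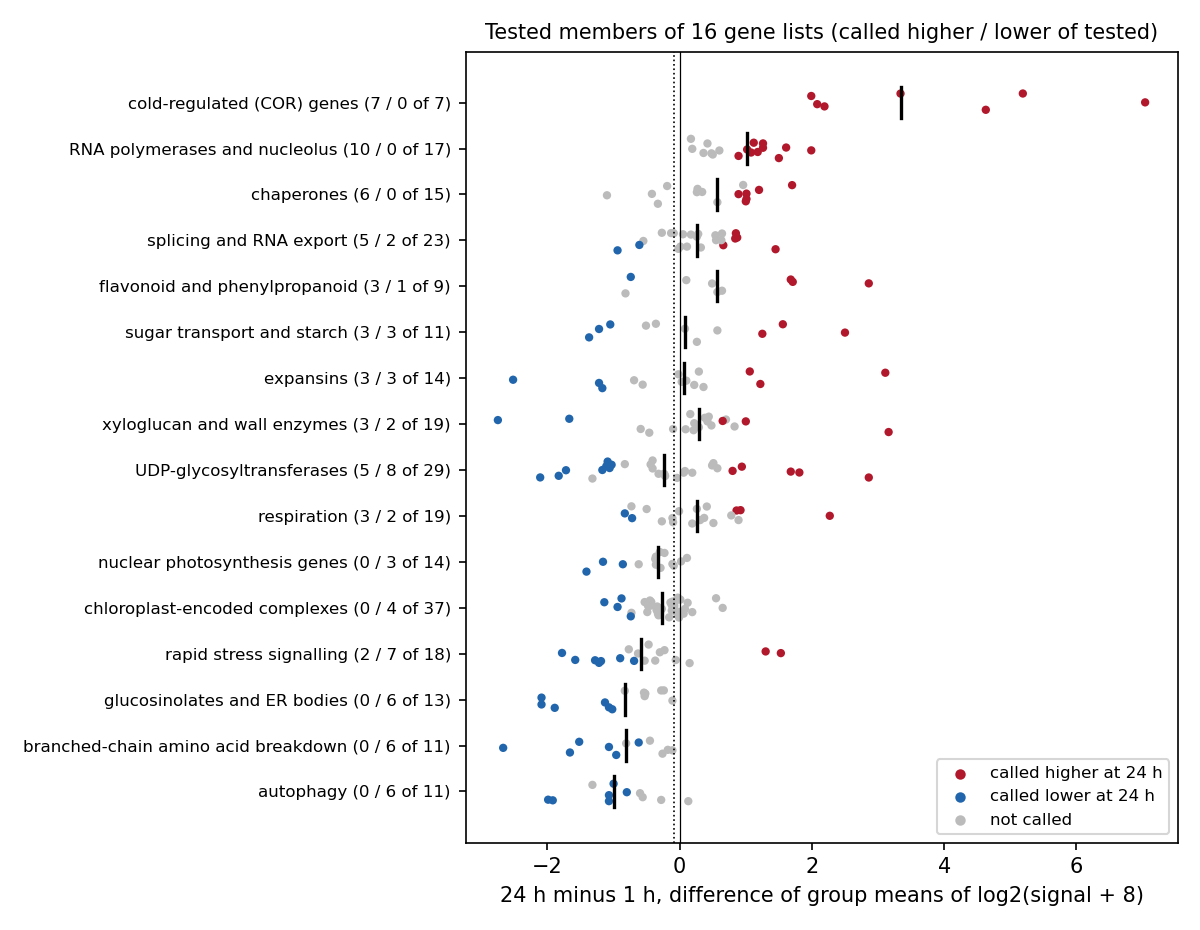
Each point is a tested gene of 1 of 16 lists, placed by its difference, 24 h minus 1 h, in group means of log2(signal + 8); red and blue points were called higher and lower at 24 h, thick bars are list medians and the dotted line is the median of all tested probe sets (-0.08). The 7 COR genes lie between 1.99 and 7.04 and the 11 autophagy genes between -1.99 and 0.13.

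Genes of sugar transport were called in both directions. SWEET13, a plasma-membrane sucrose carrier, had signals of 217 and 259 at 24 h, against 32.9 and 38.1 at 1 h, a difference of 2.50 ± 0.20 with a limma adjusted p of 1.14e-05. TMT2, which loads sugar into the vacuole, had 437 and 399 at 24 h, against 124 and 149 at 1 h (1.56 ± 0.18). SWEET1, a glucose carrier, was higher by 1.25 ± 0.19. Both directions were found among vacuolar carriers, with TMT1, at 0.26, not called. SWEET17, a fructose carrier of the vacuole, had 169 and 120 at 24 h, against 331 and 356 at 1 h, and fell by 1.22 ± 0.22. SWEET16 fell by 1.05 on the log2 scale, a call that failed when 24 h replicate 1 or 1 h replicate 2 was left out (adjusted p 0.0898 and 0.114). SWEET2 fell by 1.37, a call lost with equal array medians (0.062), with no filter on dim probe sets and without 24 h replicate 2 (0.241) or 1 h replicate 1 (0.21). In all, 3 of 11 tested members were higher and 3 were lower, beside 11.3% higher and 14.7% lower over all tested probe sets.

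Flavonoid genes and UDP-glycosyltransferases, which attach sugars to small molecules, also held both directions. Of 9 flavonoid and phenylpropanoid genes, 3 were higher and 1 was lower, beside 11.3% higher and 14.7% lower over all tested probe sets. UGT78D2, which glucosylates flavonols and anthocyanins, had 617 and 571 at 24 h, against 227 and 142 at 1 h (1.68 ± 0.28). CHIL, a chalcone isomerase-like protein, had 565 and 537 at 24 h, against 167 and 159 at 1 h (1.71 ± 0.23). UGT78D3, a flavonol arabinosyltransferase, had 72.4 and 53.3 at 24 h, against 2.69 and 0.79 at 1 h, and its difference of 2.86 ran between 1.48 and 4.62 with an added constant of 32 or 1. HCT of the lignin pathway fell by 0.74, a call lost with equal array medians (adjusted p 0.068) and without 24 h replicate 1, 24 h replicate 2 or 1 h replicate 1. DFR and CHI were not called, at 0.10 and -0.82. Of 29 UDP-glycosyltransferases, 5 were higher and 8 were lower, with a median of -0.24, beside 26.0% called over all tested probe sets. UGT72B3 was higher by 1.81 ± 0.23. UGT71C1 had 2.044 and 1.403 at 24 h, against 31.8 and 36.5 at 1 h, and UGT85A2 had 69.1 and 26.8 at 24 h, against 159 and 195 at 1 h. They fell by 2.11 and 1.83 on the log2 scale, and UGT71C1 ran between -0.97 and -3.70 with an added constant of 32 or 1. UGT85A4 fell by 1.72, a call lost without 1 h replicate 2 (0.107). Without 1 h replicate 1, 7 of the 29 were called, 3 higher and 4 lower.

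Expansins, which loosen cell walls, gave 3 higher and 3 lower members of 14, beside 26.0% called in either direction over all tested probe sets. EXLA3, among the higher, was at most 14.1 outside its 24 h arrays, so that its place among the tested probe sets rests on them. EXLA2 had signals of 317 and 343 at 24 h, against 24.5 and 39.2 at 1 h (3.11 ± 0.23, limma adjusted p 7.49e-06). EXPA8 had 20.7 and 46.9 at 24 h, against 208 and 232 at 1 h, and fell by 2.52 ± 0.39. EXPB3 fell by 1.22, a call lost without 1 h replicate 1 (0.0537). EXLA3 and EXPA16 were higher by 1.22 and 1.06 and EXPA20 fell by 1.17, each with an adjusted p between 0.0423 and 0.047, and each lost its call without 24 h replicate 2 or 1 h replicate 1, and under other settings. Without 24 h replicate 2, 3 expansins were called, 1 higher and 2 lower, and without 1 h replicate 1, 1 higher and 1 lower.

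Of 19 xyloglucan and other wall enzymes, 3 were higher and 2 were lower, a share near that of all tested probe sets (26.0%). XTH20, which cuts and rejoins xyloglucan, had 302 and 269 at 24 h, against 32.6 and 18.5 at 1 h (3.16 ± 0.28). XTH18 and CSLD2, a cellulose synthase-like protein, were higher by 1.00 and 0.65, and each lost its call in 3 of the 4 fits that left out an array. GH9B13, an endoglucanase gene, had 60.2 and 58.6 at 24 h, against 436 and 458 at 1 h, so that it was 6.75-fold lower at 24 h (-2.75 ± 0.18, limma adjusted p 3.76e-06). CSLA03, of the glucomannan synthase family, had 29.2 and 25.9 at 24 h, against 111 and 99.5 at 1 h, and fell by 1.67 ± 0.21. Without 1 h replicate 2, 1 of the 19 was called higher and 2 lower, and without 1 h replicate 1, 1 higher and 3 lower. TBL36, of a family that acetylates wall polysaccharides, had 53.5 and 53.3 at 24 h, against 322 and 315 at 1 h (-2.41 ± 0.19). In that family 3 of 17 tested members were lower and 0 higher, beside 14.7% lower over all tested probe sets. The beta-tubulin TUB9 had 1412 and 1408 at 24 h, against 476 and 469 at 1 h, and was higher by 1.56 ± 0.19. SP1L3, a microtubule-associated SPIRAL1 relative chosen after its values were seen, had 151 and 133 at 24 h, against 513 and 577 at 1 h.

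Several single genes of metabolism and defence were far higher at 24 h. NDB2, an external NADH dehydrogenase of mitochondria, had 298 and 223 at 24 h, against 42.5 and 52.5 at 1 h (2.27 ± 0.22), in a respiration list with 3 higher and 2 lower of 19; the lower count was 0 when 24 h replicate 2, 1 h replicate 1 or 1 h replicate 2 was left out. The share called in the respiration list lay near that of all tested probe sets (26.0%). BETA-VPE, a vacuolar processing enzyme, had 215 and 218 at 24 h, against 27.95 and 37.35 at 1 h (2.48 ± 0.20). Its relative GAMMA-VPE fell by 0.83 ± 0.23, a call lost without any 1 of the 4 arrays. BGLU25, a beta-glucosidase, had 607 and 456 at 24 h, against 56.4 and 76.3 at 1 h (2.86 ± 0.21). The glutathione transferase GSTU25 had 258 and 107 at 24 h, against 21.2 and 21.7 at 1 h, and its difference of 2.57 became 1.96 when 24 h replicate 1 was left out and 3.17 when 24 h replicate 2 was left out. GSTU18 of the same family had 37.8 and 39.8 at 24 h, against 192 and 168 at 1 h, and fell by 2.01 ± 0.20. PDF2.1, a defensin gene, had 212 and 204 at 24 h, against 14.5 and 6.84 at 1 h (3.56 ± 0.31). Its relatives LCR69 and LCR68, on the same stretch of the RefSeq annotation, were higher by 1.52 and 0.81, the second with a call lost in 3 of the 4 fits that left out an array. The defensins are alike in sequence, and cross-hybridisation was not tested. PDF1.2, the jasmonate-responsive defensin, was not called, at -0.71.

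The clock gene GI, which also promotes flowering, had signals of 568 and 491 at 24 h, against 56.4 and 127 at 1 h. It was 5.76-fold higher (2.53 ± 0.43, limma adjusted p 0.00132), and at 0 h it stood at 38.1 and 128. It was the 1 called gene of 14 clock and light-signalling genes tested, beside 26.0% called over all tested probe sets. The part of the hour of harvest was not tested. In the auxin list, IAA29, an Aux/IAA repressor, had 80.8 and 181 at 24 h, against 14.97 and 23.81 at 1 h (2.26 ± 0.38), and GH3.3, which conjugates auxin to amino acids, was higher by 1.14 with a call lost in 3 of the 4 fits that left out an array. The gibberellin receptors GID1A, GID1B and GID1C were not called by limma, at -0.55, 0.44 and -0.60, with 1 of the 3 at an unadjusted p under 0.05.

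Of 18 tested genes of rapid stress signalling, 7 were lower and 2 were higher at 24 h, with a median of -0.58; over all tested probe sets 14.7% were lower and 11.3% higher. The zinc-finger repressor STZ had signals of 141 and 126 at 24 h, against 375 and 457 at 1 h. It was 2.98-fold lower at 24 h (-1.58 ± 0.22, limma adjusted p 0.000327), while the 0 h arrays stood at 41.2 and 28.4, so that the 24 h level lay between those of 0 h and 1 h. WRKY53 and WRKY22, factors of defence and senescence, fell by 1.28 and 1.22 on the log2 scale. WRKY53 had 18.99 and 22.99 at 24 h, against 56.6 and 68.6 at 1 h, with 25.9 and 19.1 at 0 h. WRKY22 had 26.0 and 47.3 at 24 h, against 80.2 and 108 at 1 h, with 33.5 and 32.7 at 0 h, and it was not called without 1 h replicate 2 (adjusted p 0.0714). For both, the 24 h signals lay in or near the range of the 0 h signals. PTI1-4, a protein kinase, had 75.8 and 30.3 at 24 h, against 158 and 218 at 1 h (-1.78 ± 0.31). The calmodulin-like CML42 fell by 1.19, the ubiquitin ligase PUB24 by 0.90 and the receptor-like kinase BIK1 by 0.69, and each lost its call in at least 2 of the 4 fits that left out an array. TINY2, an AP2-domain factor, had 69.6 and 70.2 at 24 h, against 15.4 and 23.2 at 1 h, and rose by 1.53 ± 0.26, and the ubiquitin ligase PUB19 was higher by 1.3, which was not called without 1 h replicate 2 (adjusted p 0.0722). Without 1 h replicate 2, 4 of the 18 were called, 3 lower and 1 higher. EIN3, CML41, WRKY6, WRKY20 and WRKY47 of the smaller lists were not called, at -0.51, -0.06, -0.53, 0.31 and -0.24.

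The cytokinin response regulator ARR15, which damps cytokinin signalling, had 14.9 and 21.6 at 24 h, against 91.9 and 53.3 at 1 h, with 22.7 and 21.6 at 0 h. It fell by 1.59 ± 0.35, a call lost without 1 h replicate 1 (adjusted p 0.0852). The tetraspanin TET8 and the wax-repressing factor DEWAX (AT5G61590), chosen after their values were seen, were lower as well. TET8 had 232 and 188 at 24 h, against 720 and 768 at 1 h, and DEWAX had 234 and 184 at 24 h, against 560 and 823 at 1 h. At 0 h TET8 stood at 345 and 370 and DEWAX at 503 and 578, so that in these genes, unlike ARR15, the 24 h signals lay below those of 0 h.

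**Figure D4:**
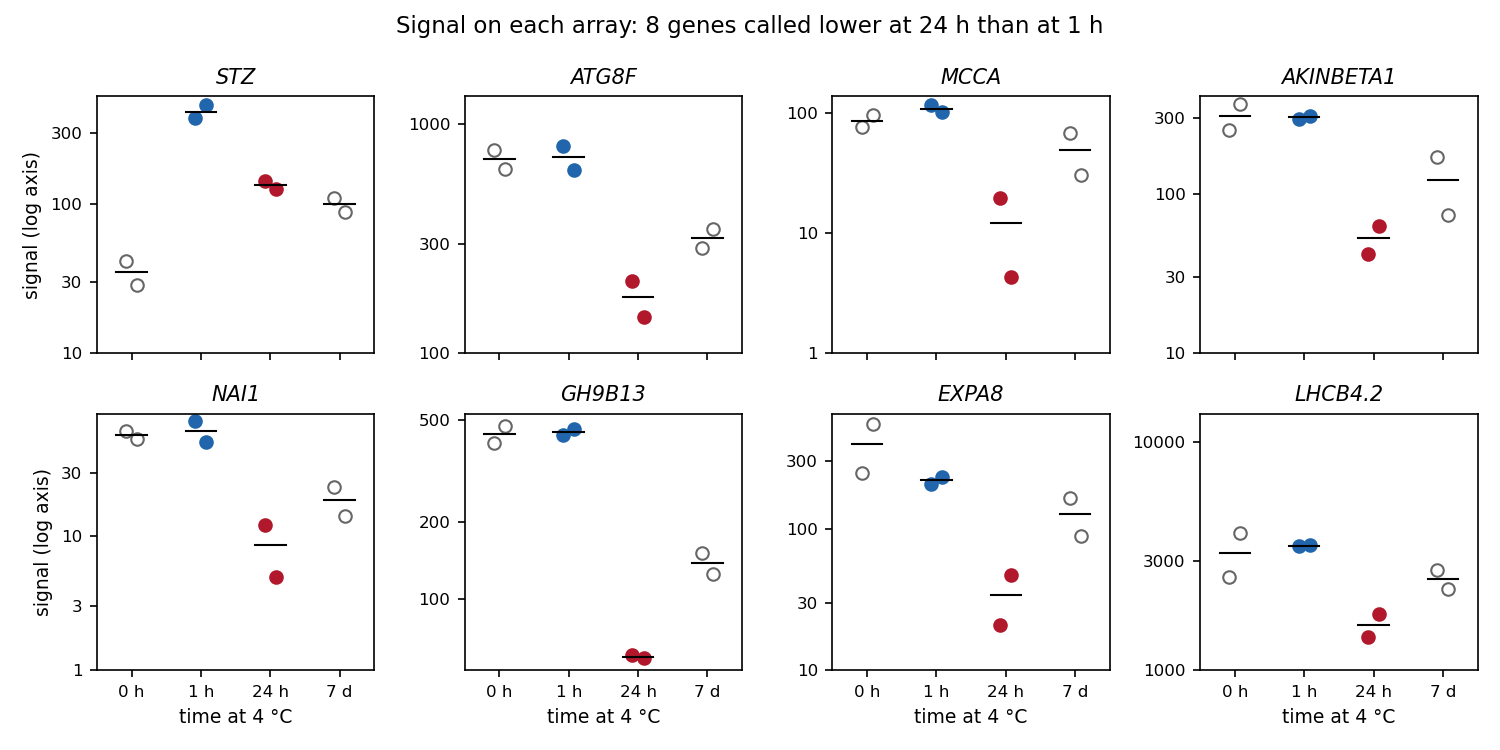
Signal on a log axis against time at 4 °C for 8 genes called lower at 24 h (red) than at 1 h (blue), with 1 point per array and a bar at the mean of 2 arrays; open points are the 0 h and 7-day arrays. In STZ the 24 h arrays (141 and 126) lie below the 1 h arrays (375 and 457) and above the 0 h arrays (41.2 and 28.4), while in the other 7 panels the 24 h arrays lie below all 0 h and 1 h arrays.

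Of 11 tested autophagy genes, whose products enclose and recycle cell contents, 6 were lower at 24 h and 0 higher, beside 14.7% lower over all tested probe sets, with a median of -1.0, and 4 to 8 were lower when 1 array was left out. ATG8F, one of the ubiquitin-like ATG8 proteins that coat the autophagosome, had signals of 206 and 143 at 24 h, against 798 and 630 at 1 h. It was 3.98-fold lower at 24 h (-1.99 ± 0.22, limma adjusted p 8.15e-05). ATG8E had 64.6 and 53.0 at 24 h, against 256 and 232 at 1 h (-1.92 ± 0.23). ATG8D, ATG8C, APG8H and the conjugating enzyme ATG3 fell by 1.07, 1.00, 1.07 and 0.80, with the calls of APG8H and ATG3 lost in 2 of the 4 fits that left out an array. ATG8B, ATG8G, APG8A, ATG8H and AT5G66930 were not called, at 0.13, -0.56, -0.60, -1.32 and -0.28. Members of the ATG8 family are alike in sequence, and cross-hybridisation was not tested.

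Branched-chain amino acids can be broken down as a source of energy when sugar is short. Of 11 tested genes of this breakdown, 6 were lower and 0 higher, with a median of -0.81, beside 14.7% lower over all tested probe sets. MCCA and MCCB, the subunits of methylcrotonyl-CoA carboxylase in leucine breakdown, were both lower. MCCA had 19.8 and 4.28 at 24 h, against 117 and 102 at 1 h, a difference of -2.67 ± 0.39 that became -3.26 when 24 h replicate 1 was left out and -2.08 when 24 h replicate 2 was left out. MCCB had 63.3 and 34.2 at 24 h, against 153 and 178 at 1 h (-1.66 ± 0.27). IVD, the dehydrogenase of the same pathway, and D2HGDH, which feeds electrons to the respiratory chain, fell by 1.07 and 0.96, and both lost their call without 1 h replicate 1. ETFQO, the carrier that takes up those electrons, had 35.8 and 4.93 at 24 h, against 52.7 and 68.4 at 1 h, a difference of -1.52 that was -0.64 without 24 h replicate 2 and no longer called (adjusted p 0.133), as it was not without either 1 h array (0.0641 and 0.122). ALDH6B2 fell by 0.62 with an adjusted p of 0.0482, and lost its call with equal array medians and in 3 of the 4 fits that left out an array. Without 1 h replicate 1 only 2 members were called lower. The wider list of genes induced by darkness and starvation had 8 lower of 11, these 6 and 2 more; without 24 h replicate 2, 1 h replicate 1 or 1 h replicate 2 it had 5, 4 and 5. AKINBETA1, a subunit of the energy-sensing kinase SnRK1, had 42.0 and 63.5 at 24 h, against 298 and 310 at 1 h (-2.38 ± 0.33), and EXO, of brassinosteroid-linked growth, fell by 0.82, a call that failed without 24 h replicate 2 or 1 h replicate 2 (adjusted p 0.211 and 0.198). Chosen after their values were seen, the lysine-degrading LKR/SDH gene (AT4G33150) fell by 1.25 and SDP1, a lipase of stored oil, by 1.58 on the log2 scale.

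Genes of glucosinolates and of ER bodies, compartments that hold defence beta-glucosidases, gave 6 lower and 0 higher of 13, with a median of -0.83. Over all tested probe sets 14.7% were lower. NAI1, the factor that directs ER body formation, had signals of 12.3 and 4.96 at 24 h, against 72.8 and 50.6 at 1 h (-2.09 ± 0.32), and ran between -1.20 and -2.80 with an added constant of 32 or 1. Its target NAI2 had 191 and 142 at 24 h, against 361 and 350 at 1 h (-1.07 ± 0.23), and was not called without 24 h replicate 2 (adjusted p 0.0536). The jacalin-related lectins JAL33 and JAL22 fell by 2.09 and 1.89 on the log2 scale. JAL33 had 139 and 62.4 at 24 h, against 430 and 419 at 1 h, and JAL22 had 73.8 and 31.5 at 24 h, against 248 and 165 at 1 h. JAL34 fell by 1.13, a call lost with equal array medians and in 3 of the 4 fits that left out an array; without 24 h replicate 2 it was at -0.49 (adjusted p 0.192). Without 24 h replicate 2, 4 of the 13 were lower. GTR1, a glucosinolate transporter, fell by 1.02 ± 0.18. PYK10, the main ER body beta-glucosidase, was not called, at -0.53, with 1730 and 959 at 24 h, against 2007 and 1734 at 1 h.

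NAI2 and PYK10 are also root markers, and values for those markers belong beside this group. Of 4 root markers tested, 1 (NAI2) was lower; the root-hair expansins EXPA7 and EXPA18 were not called, at 0.36 and 0.29. The summed root-marker signal was 2013 and 1184 at 24 h, against 2428 and 2164 at 1 h, with no marker at 0. RCA, the leaf gene for Rubisco activase and the 1 shoot marker tested, had 4268 and 6255 at 24 h, against 6145 and 4955 at 1 h, and was not called, at -0.09. The part of the proportion of root and shoot in the results was not tested. In whole plants fewer cells of a type and less RNA per cell cannot be told apart.

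Of 14 nuclear photosynthesis genes tested, 3 were lower and 0 higher, with a median of -0.33, beside 14.7% lower and 11.3% higher over all tested probe sets. LHCB4.2, an antenna protein of photosystem II, had 1398 and 1754 at 24 h, against 3480 and 3528 at 1 h (-1.16 ± 0.24, limma adjusted p 0.00397). PGRL1B, of cyclic electron flow, had 53.0 and 57.5 at 24 h, against 147 and 174 at 1 h (-1.41 ± 0.19). NdhN fell by 0.86, a call lost without 24 h replicate 1 or 1 h replicate 2. LHCB4.1 and LHCB4.3, the relatives of LHCB4.2, were not called, at -0.23 and -0.36. CHLM and HEME1 of tetrapyrrole synthesis fell by 0.94 and 0.84 in a list with 2 lower of 8, HEME1 with a call lost without 1 h replicate 2 (adjusted p 0.0548). Of 37 chloroplast-encoded genes listed with the photosynthetic complexes, not all of which encode subunits, 4 were lower and 0 higher. The genes petG, ycf4, petA and cemA fell by 1.14, 0.94, 0.88 and 0.74. That count rests on single arrays and on the scaling: it was 0 without 24 h replicate 2, 0 lower and 2 higher without 1 h replicate 1, and 2 with equal array medians. Of 22 chloroplast genes of transcription and translation, rps18 and rpl33 were lower, with adjusted p of 0.0326 and 0.0471, and 0 with equal array medians. By limma 0 of 9 chloroplast ndh genes and 0 of 7 mitochondrial genes were called, and at an unadjusted p under 0.05 the counts were 1 and 0.

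Among genes chosen after their values were seen, relatives in the chloroplast differed. CURT1D (AT4G38100), a protein that bends thylakoid membranes, had 228 and 239 at 24 h, against 94.7 and 94.8 at 1 h (1.23 ± 0.19). CURT1C (AT1G52220) had 603 and 536 at 24 h, against 1325 and 1247 at 1 h (-1.16 ± 0.18). Hydroxypyruvate reductase (HPR) of photorespiration had 1075 and 1093 at 24 h, against 3072 and 2391 at 1 h, and thioredoxin TRXF2 had 187 and 105 at 24 h, against 537 and 382 at 1 h.

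Except for GH9B13, the 15 largest falls belonged to genes with only a locus code. AT2G05540 had signals of 43.6 and 26.1 at 24 h, against 793 and 722 at 1 h, and was 18.2-fold lower at 24 h (-4.19 ± 0.32, limma adjusted p 1.09e-05). AT4G27450 had 25.9 and 23.3 at 24 h, against 560 and 430 at 1 h (-3.94 ± 0.24). AT5G14120 had 94.0 and 59.2 at 24 h, against 1141 and 992 at 1 h (-3.69 ± 0.21), with the smallest adjusted p among the falls of named genes, 1.57e-06. AT1G23390 and AT5G19120 fell by 3.67 and 3.58 on the log2 scale. AT1G51400 had 205 and 285 at 24 h, against 2665 and 2673 at 1 h, and fell by 3.42 ± 0.25. AT3G28270 and AT1G52100 were near the floor of the array at 24 h, with 1.52 and 3.31, and 3.11 and 3.83, and their differences of -3.26 and -3.13 ran to -1.85 and -1.81 with an added constant of 32. AT4G33660, at -3.09, was at -3.97 without 24 h replicate 1 and at -2.20 without 24 h replicate 2. The other 5 (AT4G33666, AT1G76960, AT2G20670, AT4G21870 and AT5G11070) lay between -3.14 and -2.74. In AT2G20670 the 1 h arrays (233 and 245) stood above the 0 h arrays (69.8 and 57.1), with 36.3 and 17.6 at 24 h. Of the probe sets with no gene in the annotation, 252367_at was at -5.42 ± 0.50 and 249862_at at -5.07 ± 0.27 on the log2 scale; the first was at -6.48 with 24 h replicate 1 left out and at -4.37 with 24 h replicate 2 left out.

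Of 2578 pairs of adjacent protein-coding genes with both members tested, both were called in 186, of which 33 were both higher, 73 both lower and 80 opposite. Since 11.3% of all tested probe sets were higher and 14.7% lower, nothing about neighbours is read from these counts. In 4 of these pairs both differences were at least 4-fold, and these pairs were chosen after their values were seen. COR15B and COR15A were both higher and AT4G33660 and AT4G33666 both lower. AT2G24550 was at -2.51 beside AT2G24560 at 2.59, and AT3G15450 at -2.53 beside AT3G15460 at 2.22.

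By limma 0 of 8 histone and aurora kinase genes were called, with differences between -0.51 and 0.50 and 1 gene at an unadjusted p under 0.05. Over all tested probe sets 26.0% were called. Of 5 genes often used as references for expression 0 were called by limma and 1 had an unadjusted p under 0.05. PEX4 was at 0.40 and GAPC2 at -0.35, and the median difference of the 5 was 0.31. Their summed signal, to which the brighter genes give most, was 3862 and 3960 at 24 h, against 4755 and 4439 at 1 h. Of 8 iron homeostasis genes, the factors bHLH104 and bHLH121 fell by 1.08 and 0.80, the second with a call lost in 3 of the 4 fits that left out an array. Of 4 class III peroxidases, AT5G64120 and AT2G41480 fell by 1.1 and 0.92, with both calls lost in 3 of the 4 fits that left out an array. Of 8 nutrient transport genes 1 was called, AT1G68570 at 0.60, and that call was lost without any 1 array.

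The 7-day and 0 h arrays enter the 24 h against 1 h comparison only through the shared estimate of the spread and the filter on dim probe sets. They give a second look at the called genes, not a replication. Replicate differences at 0 h correlated with those at 24 h (0.403) and 1 h (0.385), and whether these arrays share cultures is not stated. The 7-day and 0 h groups differ in light and age as well as in the length of cold. Of the 1701 probe sets called higher at 24 h, 92.0% were higher at 7 days than at 0 h, against 46.0% of all tested probe sets. Of the 2205 called lower, 89.5% were lower at 7 days than at 0 h, against 54.0% of all tested. The median difference, 7 days minus 0 h, was 0.64 for the first and -0.63 for the second, smaller in size than their own medians of 1.04 and -1.03 at 24 h minus 1 h. For the 15 largest rises the difference, 7 days minus 0 h, ran between 0.74 and 7.13. For the 15 largest falls it ran between -4.21 and -0.53. Across the tested probe sets the differences correlated at r = 0.661 (n = 15017 probe sets, which are not independent and share the array design).

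Single genes kept to this pattern or left it. COR15A stood at 4944 and 4316 at 7 days, against 31.6 and 19.7 at 0 h, and XTH20 at 351 and 390 at 7 days, against 35.5 and 16.1 at 0 h. LEA4-5 had 5.48 and 1.99 at 7 days, against 8.46 and 2.87 at 0 h, so that its 24 h level had no counterpart at 7 days. STZ and WRKY53, lower at 24 h than at 1 h, were higher at 7 days than at 0 h by 1.33 and 0.96 on the log2 scale. PDF2.1 had 558 and 271 at 7 days, above its 24 h signals of 212 and 204. GH9B13 had 151 and 125 at 7 days, against 406 and 473 at 0 h, between its 24 h and 0 h levels.

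**Figure D5:**
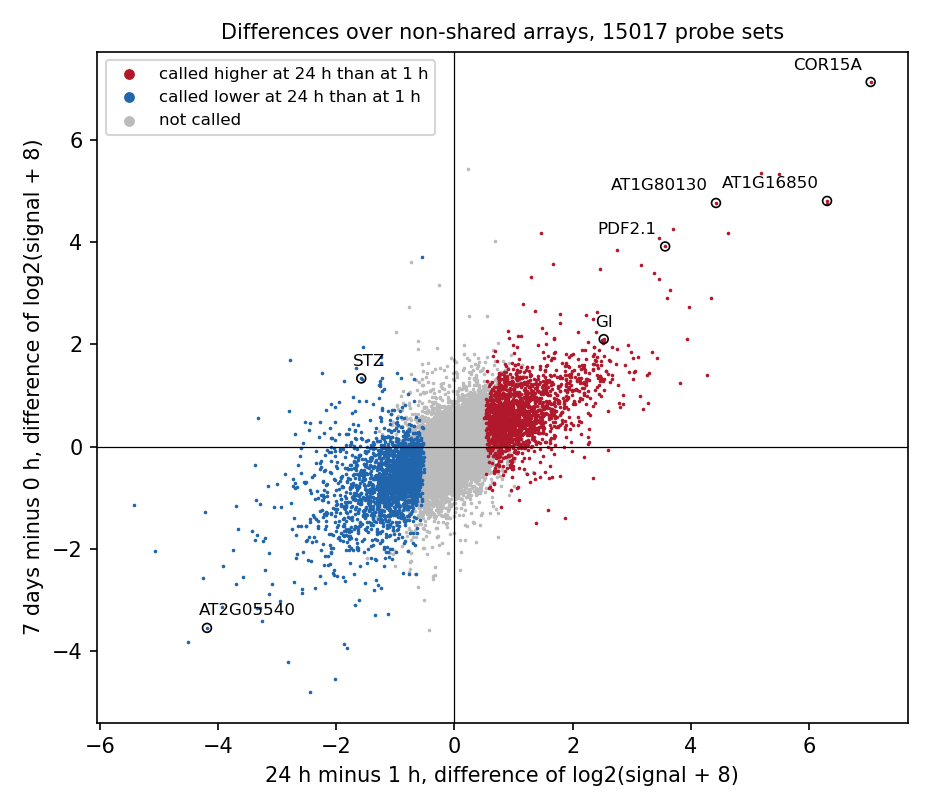
Each point is 1 of 15017 tested probe sets, with the difference 24 h minus 1 h on the horizontal axis and the difference 7 days minus 0 h, taken from the other 4 arrays, on the vertical axis, both in log2(signal + 8). Red points (called higher at 24 h) lie mostly above 0 on the vertical axis (92.0%) and blue points (called lower) mostly below it (89.5%); STZ, at -1.58 and 1.33, is among the exceptions.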

How the data were processed

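The authors made the deposited signal intensities (linear scale) with MAS5, per the submitters' processing notes; its version and settings: not given in the sources used here. No detection calls were used. Of 22810 probe sets, 64 controls were left out, 13513 pair with 1 gene, 503 with several and 8730 are unlisted in the probe annotation used here. Names came through RefSeq (TAIR10.1), which matched 13436; no build is named in the files, so no coordinates are printed. Of several probe sets for one gene the brightest stands for it. Among 90 genes with several tested probe sets 0 had opposite calls, and 67 had no call. In 15 only some of the probe sets were called, and in 8 all were called one way.

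Probe sets were tested if above the 40th percentile of an array on at least 2 of 8 arrays, as log2(signal + 8). A mean for each group was estimated from the 8 arrays together with limma 3.58.1 in R 4.3.3 (intensity trend, two-sided tests; 4 residual and 7.67 prior degrees of freedom), a fit tested on simulated data. The comparison, 39 gene lists and 20 more drawn from the annotation were chosen with earlier results of these data known. Genes were named by rule: the 15 largest called rises and falls with non-overlapping arrays, up to 6 called members of each list, every tested member of lists of 6 or fewer, 10 cold-response genes, the smallest adjusted p values, and at most 2 unnamed probe sets each way. Other names, called members beyond those 6 and uncalled members of longer lists among them, were chosen after their values were seen. Alternatives varied the added constant, filter, scaling, variance trend, arrays fitted, replicate block and each array in turn. A planned search for promoter motifs was not run, since no promoter sequences were used here.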

Additional observations from a re-analysis of the deposited data

How the results depend on the processing

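The count of 3906 called probe sets lay within 1.5 times of its value under every setting that kept all 4 arrays (3206 to 4188), and ran between 2042 and 3219 with 1 array left out, where the lone array is assumed to vary like the other groups. The number called and at least 2-fold apart (2069) was 1252 with an added constant of 32, which shrinks the differences of dim probe sets by construction, and 1718 to 2306 with 1 array left out. The share of calls that were higher at 24 h, 43.6%, was 45.2% with the filter at the 60th percentile, 48.1% after quantile normalization and 57.1% with equal array medians, which moved the median of all tested probe sets by 0.11; it ran between 41.4% and 47.8% with 1 array left out. Changes of small size are therefore best read against that shift. The labels do not say that a replicate number marks a shared culture or day. Replicate differences correlated at 0.243 between 24 h and 1 h, 0.403 between 24 h and 0 h and 0.385 between 1 h and 0 h, and at -0.166, -0.026 and -0.209 between 7 days and 24 h, 1 h and 0 h; with 2 numbers per group this leaves the pairing unsettled. With the replicate block, 4188 probe sets were called, 1817 higher and 2371 lower. Over the named genes and all alternatives, 6145 results kept their sign and their side of the threshold, 265 lost the call and 87 gained it. A further 208, of 123 genes, changed sign without a call in either fit, and 0 called differences changed sign. Signals under about 10, with no detection calls used here, give differences that depend on the added constant.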
